A study of Mus musculus with 11 samples.

Results

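Xist occupancy was described over 5 imprinted gene clusters on the autosomes of mouse (Mus musculus) cells. The clusters carry H19, Igf2, Kcnq1 and Cdkn1c (chr7:149600000-150900000 on the mm9 build), Snrpn and Ube3a (chr7:66400000-67500000), Dlk1 and Meg3 (chr12:110600000-111200000), Igf2r (chr17:12600000-13100000) and Gnas (chr2:173900000-174300000). The members were chosen by position: they are the peaks of any list that overlap one of these windows by at least 1 bp. They number 76 of the 19818 peaks in 6 lists, and all of them come from female cells.

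Xist was captured by RNA antisense purification with DNA sequencing (RAP-seq), in which chromatin is crosslinked and fragmented, biotinylated probes pull down the RNA, and the DNA held with it is sequenced. The libraries were female epiblast-like cells (EpiLCs) at day 4 (D4, n = 2) and at day 2 (D2, n = 2), female mouse embryonic fibroblasts (MEFs, n = 1) and male MEFs (n = 1). EpiLCs are embryonic stem cells moved toward the epiblast in serum-free medium with Activin A and bFGF, and the MEFs grew in serum medium. No group received any other agent, and the labels give no strain, genotype or donor. Each library is 1 list of broad peaks on chromosomes 1 to 19. The replicate 1 EpiLC pulldowns of both days re-analyse data deposited earlier, per the labels. The lists hold no expression values, so the cell types could not be checked against marker genes, and the X chromosome was not analysed here.

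Imprinted genes are expressed from the maternal or the paternal chromosome according to methylation set in the germ line. Several clusters are silenced on 1 chromosome by a long noncoding RNA that stays near its own gene, such as Kcnq1ot1 in the Kcnq1 cluster and Airn in the Igf2r cluster. Xist works on a larger scale: it is made from the inactive X chromosome in female cells, spreads along it and recruits silencing factors. Male cells normally do not express Xist.

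The lists differed widely in size, which sets how many peaks any window can hold. They held 1553 and 1148 peaks at D4, against 8227 and 7544 at D2, and 1020 in female MEFs, against 326 in male MEFs. Merged peaks covered 8.05 and 5.5 Mb at D4, against 77.1 and 55.6 Mb at D2, and 13.9 Mb in female MEFs, against 0.486 Mb in male MEFs. Deeper libraries let a peak caller find more peaks, but no read counts come with the lists, so the depth behind each is unknown and its part in these sizes was not tested. The male list also began at a higher −log10 p (4.57) than the female lists (2.8 to 2.88). Of the 76 female peaks in the windows, 2 reached 4.57. The share of all female peaks that reached it was not computed, so this count cannot be read as low or high. A window empty in the male list therefore says only that no peak passed the male list's threshold.

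Each window was set beside all windows of its length placed every 100 kb along the same chromosome, between the first and the last peak of any list. The share of these windows that held a peak is called the background share here. It describes the lists, and no p-value was drawn from it because neighbouring windows overlap. Windows that overlap an imprinted window were kept in the set.

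Over the 5 windows together, 2 and 2 windows held a peak at D4, against 3 and 3 at D2, and 2 did in female MEFs, against 0 in male MEFs. The background shares of the 5 windows add up to 0.696 and 0.596 windows at D4, against 1.88 and 1.85 at D2, and to 0.539 in female MEFs, against 0.407 in male MEFs. Peaks numbered 2 and 5 at D4, against 38 and 28 at D2, and 3 in female MEFs, against 0 in male MEFs. They covered 0.111% and 0.271% of the 3900 kb at D4, against 10.9% and 9.66% at D2, and 0.175% in female MEFs. As a share of each list's own peaks, the windows held 0.129% and 0.436% at D4, against 0.462% and 0.371% at D2, and 0.294% in female MEFs. The D4 and D2 ranges of this share overlapped. As a share of each list's covered length, the windows held 0.0536% and 0.192% at D4, against 0.552% and 0.678% at D2, and 0.0491% in female MEFs. By length the days did not overlap, but most of the D2 share came from 1 window. The H19-Igf2-Kcnq1-Cdkn1c window alone held 0.0206% and 0.164% at D4, against 0.511% and 0.631% at D2. The fold enrichment that the authors' peak caller gave, a linear ratio over its background, had a median in the windows of 2.71 and 2.82 at D4, against 2.57 and 2.79 at D2, and 3.02 in female MEFs. The medians over all peaks of the lists were 2.82 and 2.85 at D4, against 2.61 and 2.8 at D2, and 2.9 in female MEFs.

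**Figure D1:**
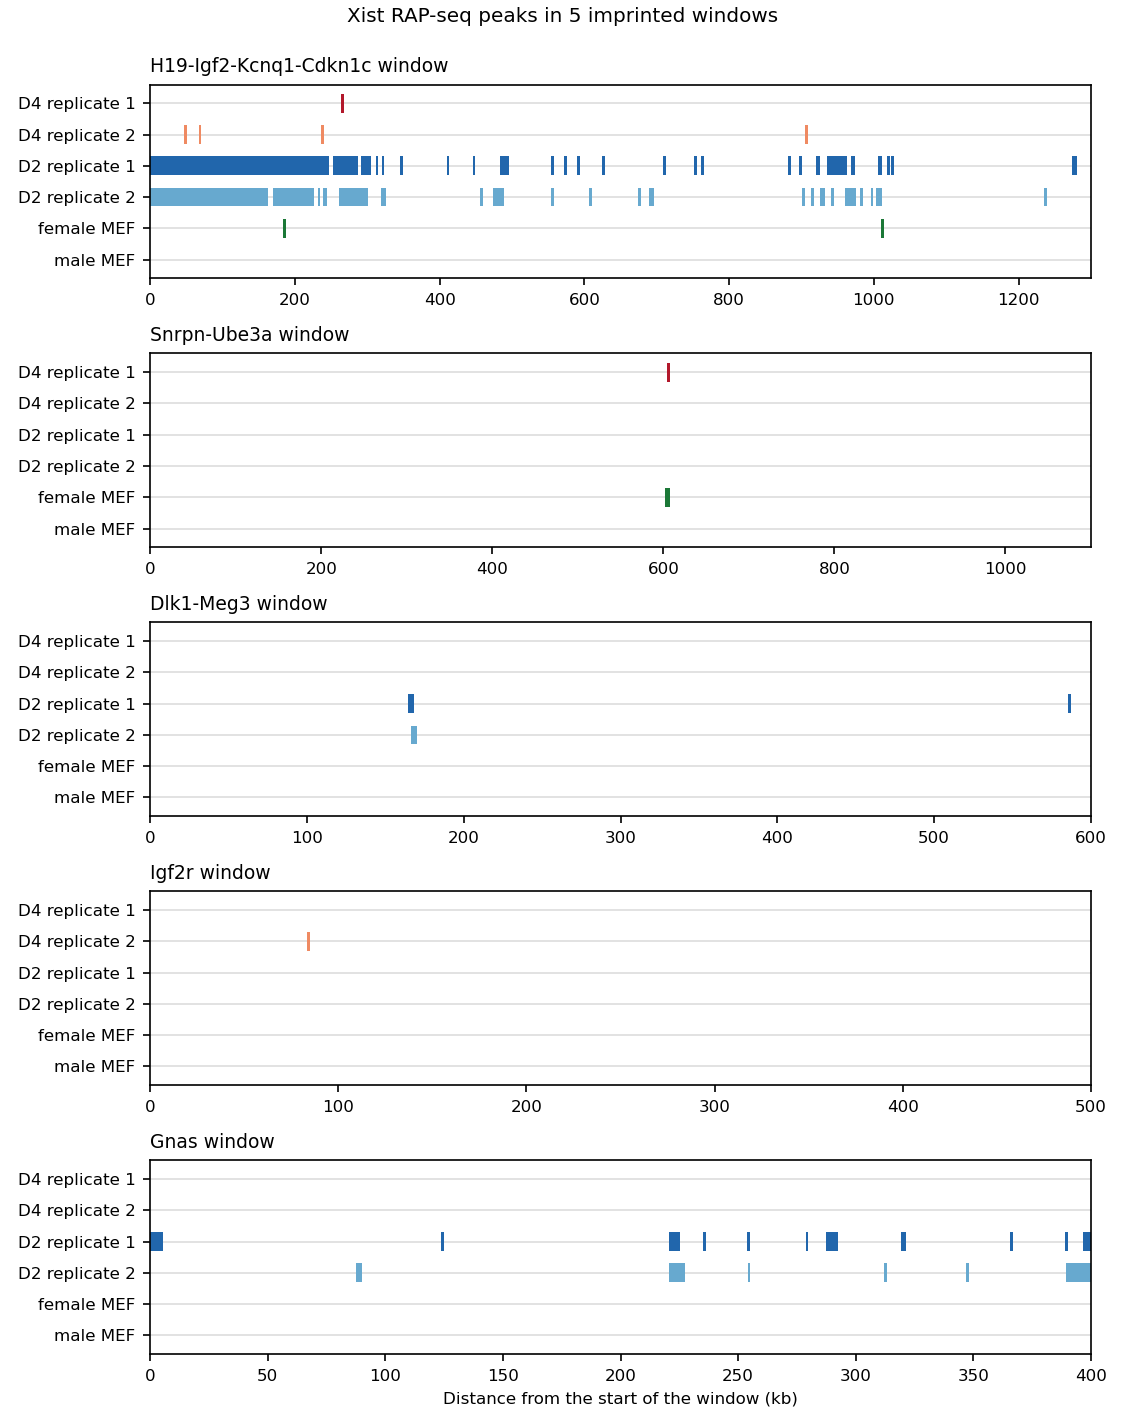
Peaks of each library along the 5 imprinted windows, with distance from the start of the window in kb on the horizontal axis and 1 row per library (very short peaks are drawn at a minimum width so that they can be seen). The D2 rows of the H19-Igf2-Kcnq1-Cdkn1c window are filled over most of the first 300 kb, the Gnas window holds D2 peaks only, and the male MEF row is empty in every window.

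The H19-Igf2-Kcnq1-Cdkn1c window held most of the length under peaks in the 5 windows in both D2 libraries and in D4 replicate 2, and the D2 length was far greater. H19 is a noncoding RNA made from the maternal chromosome, and Igf2 is a fetal growth factor made from the paternal one. Kcnq1 is a potassium channel subunit, and Cdkn1c is an inhibitor of cyclin-dependent kinases that limits growth. Peaks covered 1.66 and 9.04 kb of the 1300 kb at D4, against 394 and 351 kb at D2, and 1.61 kb in female MEFs, against 0 kb in male MEFs. Both D4 libraries lay far below both D2 libraries, and female MEFs lay at the level of the lower D4 library. The number of peaks was 1 and 4 at D4, against 25 and 21 at D2, and 2 in female MEFs, against 0 in male MEFs.

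Covered length averaged 5.35 ± 5.22 kb at D4 and 372 ± 30.7 kb at D2 (SD, n = 2 each), a difference of -367 kb for D4 minus D2. The difference was larger than the spread between replicates, and the two-sided exact permutation p was 0.333, the smallest that 2 libraries against 2 can give. Peak counts averaged 2.5 ± 2.12 at D4 and 23 ± 2.83 at D2, a difference of -20.5 (exact permutation p = 0.333). The gap between days was not as wide when the lists were limited to equal numbers of peaks. With every EpiLC list limited to its 1148 strongest peaks by q, covered length was 0 and 9.04 kb at D4, against 262 and 7.76 kb at D2, so the days overlapped (exact permutation p = 0.667). D4 replicate 2 holds 1148 peaks in all and was not cut, so its weak peaks stayed in while the other lists lost theirs. The 262 kb came mainly from a single long peak of D2 replicate 1, chr7:149483429-149847031, which ranked 1137 by q in its list.

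All windows of the same length on chromosome 7, including those that overlap this window, put these values in context. A peak was present in 23.5% and 20.9% of the 1481 windows at D4, against 43.6% and 45.4% at D2, and in 19.5% in female MEFs, against 12.8% in male MEFs. At D2, 3.44% and 2.7% of the windows were covered as much as the H19-Igf2-Kcnq1-Cdkn1c window or more. The corresponding shares were 19.6% and 6.08% at D4 and 17.3% in female MEFs. Shares covered as much were not recomputed without the overlapping windows. Relative to the covered share of chromosome 7 as a whole (between the first and the last peak of any list), that of the window was 0.215 and 1.85 times as high at D4, against 7.83 and 9.2 times at D2, and 0.185 times in female MEFs. At D2 the window therefore stood among the more covered stretches of chromosome 7 in both libraries. The D4 libraries fell on either side of the share for the whole chromosome. The D2 coverage was not confined to the window. With the window widened by 250 kb on each side, covered length was 6.59 and 17.5 kb at D4, against 602 and 488 kb at D2.

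**Figure D2:**
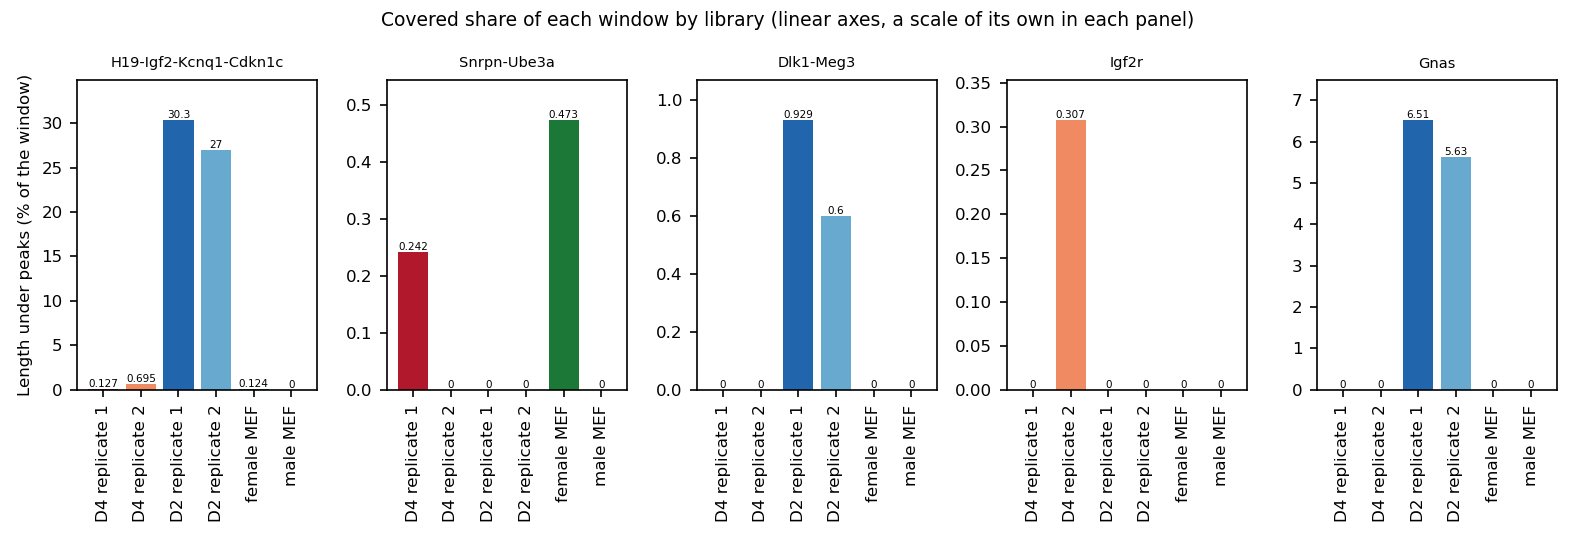
Length under peaks as a percent of each window (vertical axis, linear from 0, with its own scale in each panel) for each library, with the value printed above each bar and 1 bar per library, so there are no error bars. D2 reached 30.3% and 27% in the H19-Igf2-Kcnq1-Cdkn1c window and 6.51% and 5.63% in the Gnas window, while every bar of the other windows is below 1%.

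The D2 signal was uneven along the H19-Igf2-Kcnq1-Cdkn1c window. Stretches were drawn after the values were seen and carry no test. The first 300 kb (chr7:149600001-149900000) was covered for 0.552% and 2.95% at D4, against 96.7% and 89.4% at D2, and for 0.069% in female MEFs. The next 600 kb was empty at D4 and in female MEFs and was covered for 8.75% and 5.97% at D2. Coverage was higher again from 900 to 1100 kb (chr7:150500001-150700000), with 0% and 0.093% at D4, against 22.5% and 21.4% at D2, and 0.702% in female MEFs. In the last 200 kb only D2 had peaks, at 3.19% and 1.89%. The longest stretch that no list covered was chr7:150625240-150835340 (210 kb).

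**Figure D3:**
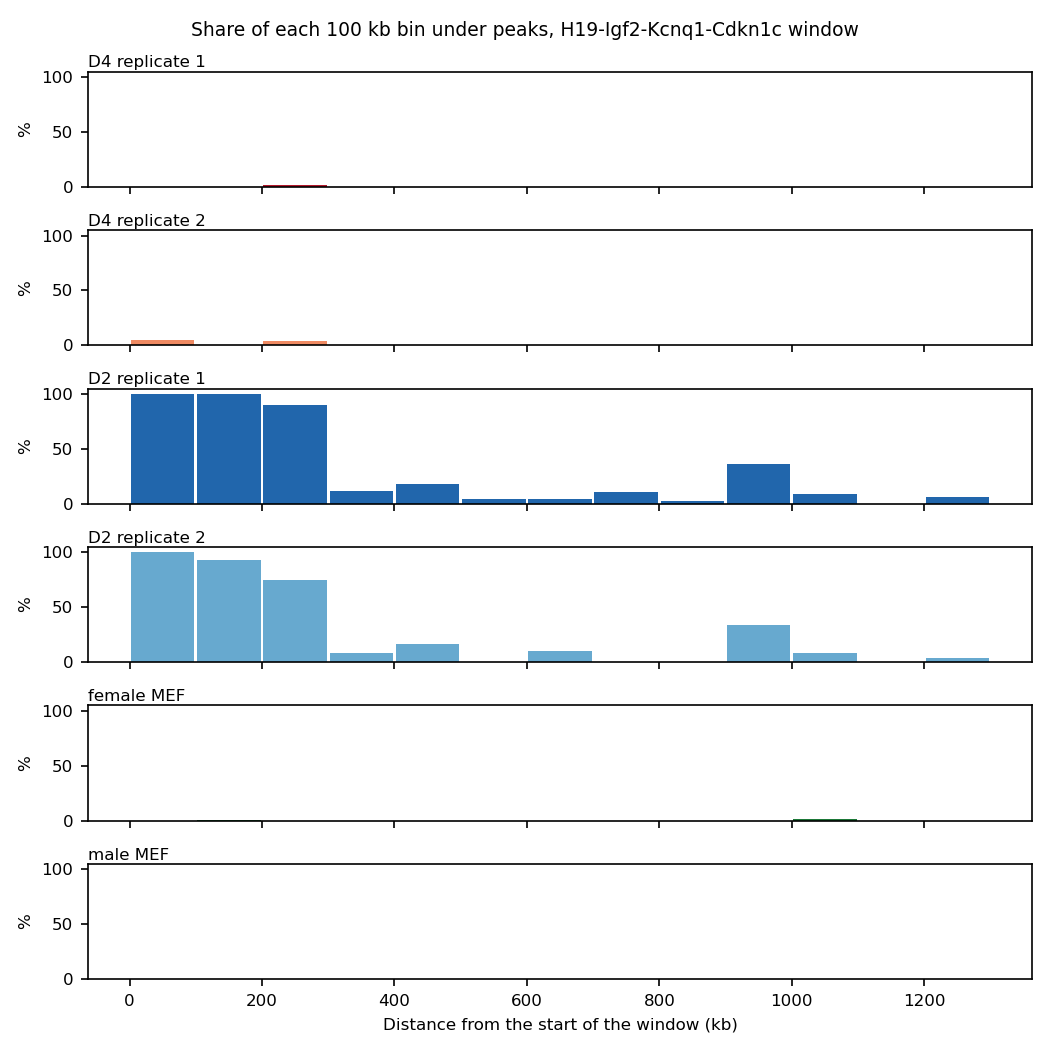
Share of each 100 kb bin of the H19-Igf2-Kcnq1-Cdkn1c window under peaks (vertical axis, percent) against distance from the start of the window in kb, with 1 panel per library. Both D2 panels are near full height over the first 300 kb and show a second, lower group of bars between 900 and 1100 kb, and the other panels are nearly flat.

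The block at the start of the window was a few very long peaks of modest enrichment. In D2 replicate 1 the longest peak was chr7:149483429-149847031 (364 kb, fold enrichment 2.66), which began before the window. In D2 replicate 2 it was chr7:149599056-149763282 (164 kb, fold enrichment 2.80). Segments called in both D2 libraries added up to 289 kb, which was 73.4% of the covered length of replicate 1 and 82.5% of that of replicate 2. The longest shared segments were chr7:149600001-149763282 (163 kb) and chr7:149769807-149827066 (57.3 kb). Within this window the replicates thus called largely the same territory, although they broke it into different peaks. The length that the D2 replicates share over their whole lists was not computed. Whether this agreement is usual for the lists is therefore not known.

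The peaks of highest fold enrichment lay outside that block or at its edge. In D2 replicate 1 they were chr7:149919732-149920837 (fold enrichment 2.91) and chr7:149890820-149905008 (2.88). In D2 replicate 2 they were chr7:150525532-150532731 (fold enrichment 3.01) and chr7:150055824-150057042 (2.97).

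The few D4 and female MEF peaks of the window mostly overlapped D2 peaks. D4 replicate 1 had chr7:149863280-149864935 (1.66 kb, fold enrichment 2.65). D4 replicate 2 had chr7:149646774-149650665 (3.89 kb, 2.77), chr7:149666945-149668160 (1.22 kb, 3.12), chr7:149836153-149839898 (3.75 kb, 2.82) and chr7:150505317-150505502 (0.186 kb, 2.79). No peak was shared between the D4 replicates. The D4 replicate 1 peak lay inside peaks of both D2 libraries, and of the 4 D4 replicate 2 peaks, 3 overlapped D2 replicate 1 and 4 overlapped D2 replicate 2, covering 97.9% and 71.3% of their length. Female MEFs had chr7:149783140-149783346 (0.207 kb, fold enrichment 3.02) and chr7:150609438-150610840 (1.4 kb, 2.85), and both lay inside peaks of both D2 libraries and outside all D4 peaks. These overlaps are small counts and were not tested. D2 covered 30.3% and 27% of the window, but 96.7% and 89.4% of its first 300 kb. That stretch held 1 and 3 of the D4 peaks and 1 of the female MEF peaks, so overlap with D2 there was nearly fixed in advance. The shares of D4 and female MEF peaks that overlap other lists were not computed over the whole lists. In male MEFs the nearest peak was chr7:147277898-147279798 (fold enrichment 3.28), 2320 kb before the window.

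The Gnas window was the second place with repeated D2 peaks and had none in the other libraries. Gnas encodes the stimulatory G protein alpha subunit, which couples hormone receptors to cyclic AMP, and it gives rise to several imprinted transcripts, among them the antisense RNA Nespas. Peaks numbered 0 and 0 at D4, against 11 and 6 at D2, and 0 in female MEFs, against 0 in male MEFs. They covered 0 and 0 kb of the 400 kb at D4, against 26 and 22.5 kb at D2. Covered length averaged 0 kb at D4 and 24.3 ± 2.47 kb at D2 (SD, n = 2), a difference of -24.3 kb that was larger than the spread between replicates (exact permutation p = 0.333). Peak counts averaged 0 at D4 and 8.5 ± 3.54 at D2, a difference of -8.5 (exact permutation p = 0.333). With the lists limited to equal numbers of peaks, the covered length was 0 and 0 kb at D4, against 10.2 and 0 kb at D2, so the difference then rested on D2 replicate 1. With the window widened by 250 kb on each side, it was 2.07 and 0 kb at D4, against 103 and 73.1 kb at D2. Most of the D2 length in the widened window thus lay outside the Gnas window itself.

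Among 1776 windows of 400 kb on chromosome 2, 6.64% and 5.8% held a peak at D4, against 34.5% and 31.5% at D2, and 4.5% did in female MEFs, against 3.72% in male MEFs. A window without peaks was thus the common state in every library. At D2, 13.5% and 11.7% of the windows were covered as much as the Gnas window or more.

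The D2 replicate 1 peaks of highest fold enrichment in the Gnas window were chr2:174296642-174304011 (7.37 kb, fold enrichment 3.17), which was also its longest, and chr2:174153898-174154714 (3.01). The first of them ranked 166 by fold enrichment among the 8227 peaks of the list. In D2 replicate 2 those of highest fold enrichment were chr2:174154028-174154696 (0.669 kb, fold enrichment 2.97) and chr2:174211917-174212945 (2.95). The longest was chr2:174289226-174302947 (13.7 kb, 2.93). The replicates shared 4 segments of 8.95 kb in all, which was 34.4% of the covered length of replicate 1 and 39.7% of that of replicate 2. The shared segments were chr2:174120712-174125391, chr2:174154028-174154696, chr2:174289226-174289468 and chr2:174296642-174300000, the last ending with the window. The replicates agreed on less of the Gnas window than of the H19-Igf2-Kcnq1-Cdkn1c window, a contrast that was not tested. Neither share was set beside that of the whole lists.

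The nearest D4 peaks were chr2:173842510-173844578 in replicate 1 (fold enrichment 2.75), 55.4 kb before the Gnas window, and chr2:172609557-172613118 in replicate 2 (2.91), 1287 kb before it. The nearest female MEF peak was chr2:174558034-174559846 (fold enrichment 2.85), 258 kb after the window. The nearest male MEF peak, chr2:160137728-160137902 (3.88), was 13762 kb away.

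**Figure D4:**
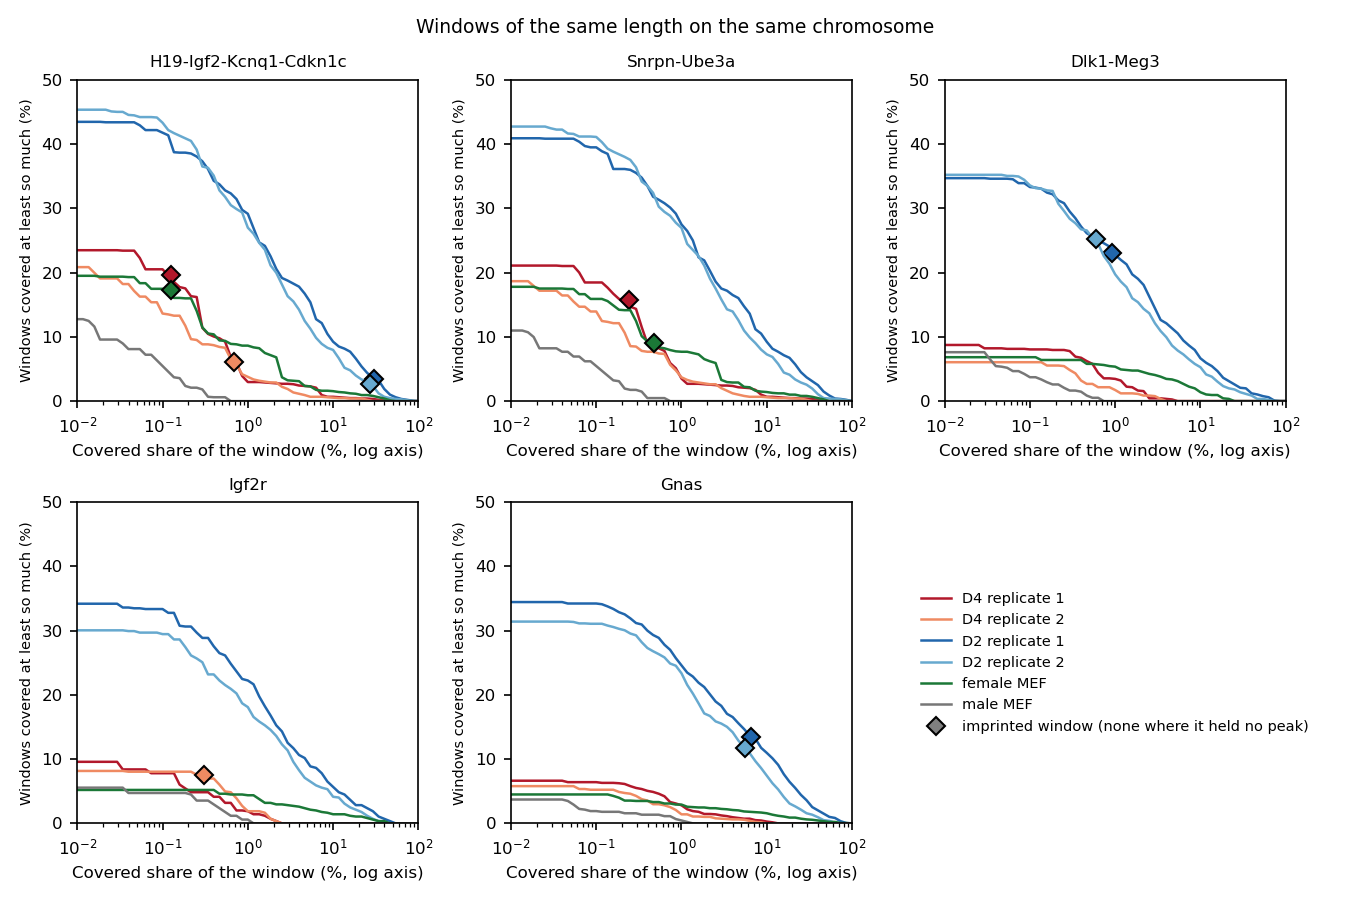
Share of all windows of the same length on the same chromosome (vertical axis, percent) that were covered at least as much as the value on the horizontal axis (percent of the window, log axis), with 1 line per library and a diamond for the imprinted window where it held a peak. The D2 diamonds of the H19-Igf2-Kcnq1-Cdkn1c window lie far down their lines, at 3.44% and 2.7% of windows, and those of the Dlk1-Meg3 window lie at 23.1% and 25.2%.

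The Dlk1-Meg3 window held sparse D2 peaks and nothing else. Dlk1 is a transmembrane protein of the Notch ligand family made from the paternal chromosome, and Meg3 is a long noncoding RNA made from the maternal one. Peaks numbered 0 and 0 at D4, against 2 and 1 at D2, and 0 in female MEFs, against 0 in male MEFs. Covered length averaged 0 kb at D4 and 4.59 ± 1.4 kb at D2 (SD, n = 2), a difference of -4.59 kb (exact permutation p = 0.333), and the count differed by -1.5 peaks (0 at D4 and 1.5 ± 0.707 at D2, p = 0.333). Both differences exceeded the spread between replicates. With the lists limited to equal numbers of peaks, the covered length was 0 and 0 kb at D4, against 5.58 and 0 kb at D2, so the difference again rested on D2 replicate 1.

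The background share among 1155 windows of 600 kb on chromosome 12 was 8.74% and 6.06% at D4, against 34.7% and 35.2% at D2, and 6.84% in female MEFs, against 7.62% in male MEFs. At D2, 23.1% and 25.2% of those windows were covered as much as the Dlk1-Meg3 window or more, and its covered share was 0.372 and 0.337 times that of the whole chromosome. The D2 peaks of this cluster were therefore ordinary for chromosome 12 in number and length.

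D2 replicate 1 had chr12:110764401-110768136 (3.74 kb, fold enrichment 2.84) and chr12:111185428-111187268 (1.84 kb, 2.84), and D2 replicate 2 had chr12:110766355-110769956 (3.6 kb, 2.80). The replicates met in a single segment, chr12:110766355-110768136 (1.78 kb). The nearest D4 peaks were chr12:113443470-113451860 in replicate 1 (fold enrichment 2.68) and chr12:113523953-113525515 in replicate 2 (2.74), 2243 and 2324 kb after the window. In female MEFs the nearest was chr12:109151855-109156566 (3.15), 1443 kb before it, and in male MEFs chr12:113475559-113475825 (3.35), 2276 kb after it.

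The Snrpn-Ube3a window held a peak in female MEFs and in 1 D4 library and none at D2. Snrpn encodes a spliceosomal protein and is expressed from the paternal chromosome. Ube3a is a ubiquitin ligase that is imprinted in neurons, where the paternal copy is silenced by the transcript Snhg14. Peaks numbered 1 and 0 at D4, against 0 and 0 at D2, and 1 in female MEFs, against 0 in male MEFs. They covered 2.66 and 0 kb of the 1100 kb at D4, against 0 and 0 kb at D2, and 5.2 kb in female MEFs, against 0 kb in male MEFs. The D4 mean of 1.33 ± 1.88 kb differed from the D2 mean of 0 kb by 1.33 kb, less than the spread between the D4 replicates (n = 2 each, exact permutation p = 1). The peak count differed by 0.5 (0.5 ± 0.707 at D4 and 0 at D2, exact permutation p = 1).

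The female MEF peak, chr7:67002433-67007635, had a fold enrichment of 4.15 and a −log10 q of 3.65. It ranked 2 of 1020 peaks in its list by fold enrichment and by q. The D4 replicate 1 peak, chr7:67004882-67007541 (2.66 kb, fold enrichment 2.76), lay wholly within it and took up 51.1% of its length. That D4 peak was an ordinary one in its own list, ranking 983 of 1553 by fold enrichment.

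No library had another peak closer than 3456 kb to the Snrpn-Ube3a window. The next female MEF peaks were 10114 kb before and 4414 kb after it. D4 replicate 2 had no peak within 7017 kb, where it had chr7:74517088-74517614 (fold enrichment 2.87). At D2 the nearest were chr7:71083616-71083778 (2.59) in replicate 1 and chr7:70956338-70956914 (2.82) in replicate 2, 3584 and 3456 kb after the window. In male MEFs the nearest was chr7:61632590-61634017 (2.92), 4766 kb before it.

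Among 1483 windows of 1100 kb on chromosome 7, 21.1% and 18.7% held a peak at D4, against 41% and 42.8% at D2, and 17.8% did in female MEFs, against 11% in male MEFs. The absence of D2 peaks was shared by 59% and 57.2% of the windows. The length covered in female MEFs was reached by 9.1% of them, and that of D4 replicate 1 by 15.7%.

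**Figure D5:**
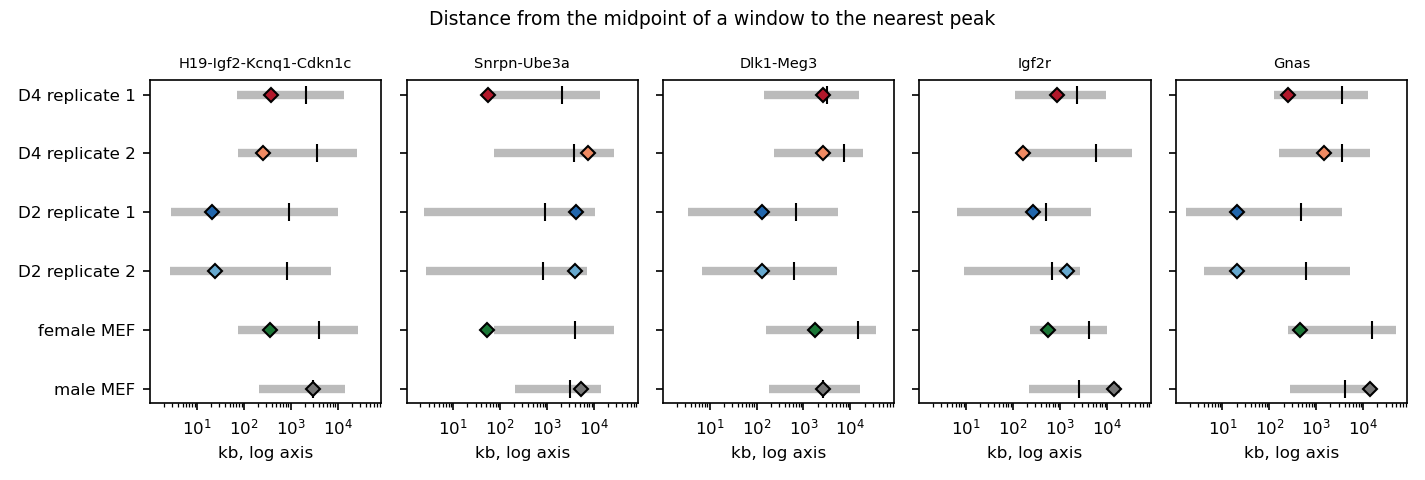
Distance from the midpoint of each imprinted window to the nearest peak of each library (diamond; horizontal axis in kb, log axis), with the median (tick) and the 5th to 95th percentile (grey bar) of the same distance over all windows of that length on the chromosome. At D2 the diamonds of the Snrpn-Ube3a window lie at 4134 and 4006 kb, above the medians of 921 and 826 kb, whereas in female MEFs the diamond lies at 52.4 kb against a median of 3923 kb.

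The Igf2r window held a single peak over all 6 lists. Igf2r is a receptor, made from the maternal chromosome in most mouse tissues, that carries Igf2 to the lysosome for breakdown, and Airn is the noncoding RNA that overlaps it. Peaks numbered 0 and 1 at D4, against 0 and 0 at D2, and 0 in female MEFs, against 0 in male MEFs. The peak, chr17:12683337-12684873 in D4 replicate 2 (1.54 kb, fold enrichment 2.84), ranked 630 of 1148 in its list. The mean covered length was 0.768 ± 1.09 kb at D4 and 0 kb at D2 (n = 2 each), a difference of 0.768 kb that was less than the spread between the D4 replicates (exact permutation p = 1). The difference changed sign when the window was widened by 250 kb on each side, to -0.274 kb, because a D2 replicate 1 peak then entered it. The count differed by 0.5 peaks (0.5 ± 0.707 at D4 and 0 at D2, exact permutation p = 1).

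That D2 replicate 1 peak, chr17:12579370-12581455 (fold enrichment 2.51), lay 18.5 kb before the Igf2r window. The nearest peaks after the window were chr17:13734158-13742514 in D4 replicate 1 (2.64), 634 kb away, chr17:14271617-14275556 in D2 replicate 2 (2.74), 1172 kb away, and chr17:13404546-13415154 in female MEFs (2.85), 305 kb away. The male MEF list had its nearest peak, chr17:26852770-26852953 (2.87), 13753 kb away. Among 845 windows of 500 kb on chromosome 17, 9.59% and 8.17% held a peak at D4, against 34.2% and 30.1% at D2, and 5.21% did in female MEFs, against 5.56% in male MEFs. An Igf2r window without D2 peaks thus matched 65.8% and 69.9% of the chromosome's windows.

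Within the clusters, peaks could not be assigned to genes or to imprinting control regions, because no mm9 annotation was used here. In RefSeq's annotation of GRCm38.p6 the 10 named genes keep their usual neighbours: H19 lies beside Igf2, Kcnq1ot1, an antisense transcript within Kcnq1, is listed after Kcnq1 and before Cdkn1c, Ube3a lies next to Snhg14 and Snrpn, Meg3 follows Dlk1, and Airn follows Igf2r. That order gives neighbours and no position on mm9, so none of the segments above is placed at a promoter, an exon or an intron.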

How the data were processed

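Peak lists of 6 Xist pulldowns, of 11 samples in the labels, were analysed; the 5 inputs were not analysed here. The build was mm9, and the tools were MACS2 2.2.7.1, bedtools 2.26.0, Picard, SAMtools 1.9, Bowtie2 2.2.9 and Trim Galore 0.4.1, per the submitters' processing notes. Their settings and the input behind each list are not given in the sources used here. Each deposited list is a broad-peak table of 1 library, without a header. Deposited positions are starts and ends in bp, printed here counted from 1. The deposited fold enrichment is the peak caller's linear ratio, and −log10 p and −log10 q, as deposited, are its significance values for a peak. These values are the authors' own, and peaks were ranked by them inside each list only. Thresholds on them were applied to all lists alike, and the lists may differ in their inputs. The deposited score was not used.

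Python 3.11.15, numpy 2.4.6 and scipy 1.17.1 were used. Peaks overlapping a window by at least 1 bp were counted, and merged length inside the window was summed. D4 and D2 were compared with two-sided exact permutation tests (smallest p 0.333). Where labels do not say that replicates are separate cultures, p-values measure only the spread between these libraries. The labels tie replicate 1 of both days to an earlier data set, so replicate numbers were taken to pair libraries. For replicate 2 the labels do not state a shared data set, and that pair is assumed. A paired test is an alternative (smallest p 0.5). MEFs have 1 library each and no test. The window scan was checked on simulated data. The windows, lists and members were chosen with earlier results of these data known. All peaks of a list are named where a window holds at most 4, otherwise the longest and the 2 of highest fold enrichment, and the nearest peak where it holds none. Shared segments and stretches were named after their values were seen. All 10 gene names were matched to RefSeq (GRCm38.p6). Alternatives were stricter q and fold thresholds, equal list lengths, wider windows, counting peaks by midpoint, other window placements and leaving out each library.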

Additional observations from a re-analysis of the deposited data

How the results depend on the processing

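Depth is unknown, each MEF group is 1 library, and 2 EpiLC libraries against 2 cannot pass a threshold of 0.05, so directions and sizes rather than calls are compared. Of 40 covered-length differences (D4 minus D2) under the alternatives, 32 kept direction, 7 became 0 and 1 reversed; of 45 peak-count differences, 36 kept direction and 9 became 0. Many of these outcomes were fixed in advance. In the H19-Igf2-Kcnq1-Cdkn1c, Gnas and Dlk1-Meg3 windows both D4 values lay below both D2 values. Leaving out a library could not change the direction there. D4 had no peak in the Gnas and Dlk1-Meg3 windows, and D2 had none in the Snrpn-Ube3a and Igf2r windows. Stricter thresholds, equal lists or a left-out library could at most bring those differences to 0. Direction also says little of size. The H19-Igf2-Kcnq1-Cdkn1c difference of -367 kb was -10.9 kb with peaks of −log10 q of at least 2, -2.99 kb with fold enrichment of at least 3, and -131 kb with lists of 1148 peaks each, where the count difference was -0.5. At a fold enrichment of at least 3 the days overlapped, with 0 and 1.22 kb at D4, against 0 and 7.2 kb at D2. The longest D2 peaks of the window had a −log10 q of 1.98 and 1.76. With the replicate block (paired by replicate number) the difference is -367 kb by arithmetic, since the pairs are balanced, and only the p can differ (exact p = 0.5). The block is therefore no check of stability and is not counted above. The Gnas difference was -5.09 kb with the stricter q and with equal lists and -2.09 kb with the stricter fold, and for Dlk1-Meg3 it was -2.79 kb with the stricter q and with equal lists. In all of these settings D2 replicate 2 had 0 kb, so the differences rested on D2 replicate 1.

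With fold enrichment of at least 3, the count difference became 0 in the H19-Igf2-Kcnq1-Cdkn1c window, and the length and count differences became 0 for Snrpn-Ube3a, Dlk1-Meg3 and Igf2r. With −log10 q of at least 2, those of Snrpn-Ube3a and Igf2r became 0. With windows widened by 250 kb, the differences were -533 kb and -30 peaks for H19-Igf2-Kcnq1-Cdkn1c and -86.9 kb and -21 peaks for Gnas, while the Igf2r length difference reversed to -0.274 kb and its count difference became 0. Leaving out each library in turn gave -389 to -345 kb and -22.5 to -18.5 peaks for H19-Igf2-Kcnq1-Cdkn1c, -26 to -22.5 kb and -11 to -6 peaks for Gnas, and -5.58 to -3.6 kb and -2 to -1 peaks for Dlk1-Meg3. It gave 0 to 2.66 kb and 0 to 1 peak for Snrpn-Ube3a, at 0 without D4 replicate 1, and 0 to 1.54 kb and 0 to 1 peak for Igf2r, at 0 without D4 replicate 2. The number of the 5 windows with a peak, with the stricter q, was 0 and 1 at D4, against 3 and 1 at D2, and 1 in female MEFs. With the stricter fold it was 0 and 1 at D4, against 1 and 1 at D2, and 2 in female MEFs. Windows placed side by side (114 to 444 a chromosome) moved a background share by at most 2.94 percentage points, and leaving out windows on the imprinted clusters by at most 2.04.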

Other observations

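The female MEF peak of the Snrpn-Ube3a window had a −log10 p of 5.35, and the D2 replicate 1 peak at the end of the Gnas window had one of 4.87. Both are above the lowest value in the male list, 4.57. The male list had no peak within 4766 kb of the Snrpn-Ube3a window or within 13762 kb of the Gnas window. A window without a male peak was the common state. It held for 89% of windows of the Snrpn-Ube3a length on chromosome 7 and 96.3% of those of the Gnas length on chromosome 2. Depth and input behind each list are not known here. Whether peaks of this strength would have been called in male cells was not tested.

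The long D2 peaks over the first 300 kb of the H19-Igf2-Kcnq1-Cdkn1c window combined great length with an ordinary fold enrichment. The 364 kb peak of D2 replicate 1 ranked 2943 of 8227 by fold enrichment and the 164 kb peak of D2 replicate 2 ranked 3697 of 7544. By q they stood higher, at 1137 and 1758. The D4 replicate 2 peak inside that territory at chr7:149666945-149668160 ranked 86 of 1148 by fold enrichment. Its rank holds within its own, shorter list and does not compare signal between the days.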
